A study of Mus musculus with 12 samples.

Results

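The aquaporins *Aqp1*, *Aqp4*, *Aqp7*, *Aqp8* and *Aqp11* were followed in the left atrium (LA) of mice in which Notch signaling was switched on in cardiomyocytes (CMs). They are 5 of the 54658 gene names in the count table, taken by name, and the table holds 8 other aquaporin names. The members were selected on earlier results of the same LA comparison, so their differences between the groups are given as a description, with no p-value. *Aqp4* stood out: it averaged 120 normalized CPM (read counts scaled to library size) in the activated LA and 13.3 in the controls, and its levels did not overlap between the groups. *Aqp1* and *Aqp7* overlapped between the groups, *Aqp11* was near 1 CPM in both and *Aqp8* had at most 2 reads in any library.

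Aquaporins are membrane channels built from 4 identical subunits, each with its own pore. The orthodox members pass water along osmotic gradients, the aquaglyceroporins also pass glycerol, and some members pass hydrogen peroxide. In the heart, *Aqp1* is the water channel of capillary endothelium and red cells and is also found in CM membranes. *Aqp4*, best known from astrocyte end-feet, is held at the membrane by the dystrophin complex and is also made by striated muscle. *Aqp7* is the glycerol channel of fat and heart.

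The iNICD mice carried *αMHC-rtTA*, whose promoter is active in CMs, together with *tetO_NICD*, which encodes the Notch1 intracellular domain. Littermate controls carried *αMHC-rtTA* alone. All 12 animals were on a mixed background and received doxycycline chow for 3 weeks, starting at 2 to 3 months of age, with no washout. The 6 control libraries came from 4 females and 2 males and the 6 iNICD libraries from 3 females and 3 males, each from the LA of 1 animal. The LA was sequenced whole, so fewer cells of a type and less RNA per cell cannot be told apart.

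Gene counts summed to between 21432632 and 27182038 per library. *Notch1*, which gives reads from the transgene as well as from the endogenous gene, had 71187 to 107667 reads in iNICD libraries and 2335 to 3311 in controls, as labelled. The CM markers *Myh6* and *Nppa* were among the abundant genes of every library, with at least 709653 and 47609 reads. One control, replicate 5, a male, stood apart. It lay at −77.4 on the first principal component, which held 32.6% of the variance, where the other controls lay between −20.2 and 7.98, and its trimmed mean of M values (TMM) scaling factor was 0.863 against 0.973 to 1.06 in the other libraries. It also had the lowest *Aqp4*, *Aqp7* and *Aqp11* and the highest *Aqp1* of the controls. The values of the members and the calls are therefore also given without it.

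The windows upstream of 4 members, all but *Aqp4*, are shown first, since the NICD acts on DNA through RBPJ, whose binding core is TGGGAA. The set of RefSeq promoters used held no window for *Aqp4*, so *Aqp4* was not searched. In each line the 250 bases before the RefSeq start are written 5′ to 3′ on the strand of the gene, and capitals mark the RBPJ core, as TGGGAA or as its reverse complement TTCCCA. *Aqp1* is at chr6:55336049-55336298 on the plus strand, *Aqp7* at chr4:41048137-41048386 on the minus strand, *Aqp8* at chr7:123462044-123462293 on the plus strand and *Aqp11* at chr7:97738248-97738497 on the minus strand, all in RefSeq on GRCm38.p6.
Aqp1: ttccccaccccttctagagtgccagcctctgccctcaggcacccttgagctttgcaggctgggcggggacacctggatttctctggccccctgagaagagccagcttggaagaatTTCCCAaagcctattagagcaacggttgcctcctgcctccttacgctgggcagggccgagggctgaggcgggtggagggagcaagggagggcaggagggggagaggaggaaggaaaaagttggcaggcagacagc
Aqp7: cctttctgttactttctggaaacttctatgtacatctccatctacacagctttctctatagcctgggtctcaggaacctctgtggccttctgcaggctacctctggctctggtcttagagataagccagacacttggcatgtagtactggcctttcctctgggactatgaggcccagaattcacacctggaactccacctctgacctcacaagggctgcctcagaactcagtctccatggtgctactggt
Aqp8: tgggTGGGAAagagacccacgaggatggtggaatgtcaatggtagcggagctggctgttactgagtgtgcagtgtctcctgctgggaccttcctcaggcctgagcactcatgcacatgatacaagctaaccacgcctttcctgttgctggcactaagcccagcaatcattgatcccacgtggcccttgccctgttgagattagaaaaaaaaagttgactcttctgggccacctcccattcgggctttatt
Aqp11: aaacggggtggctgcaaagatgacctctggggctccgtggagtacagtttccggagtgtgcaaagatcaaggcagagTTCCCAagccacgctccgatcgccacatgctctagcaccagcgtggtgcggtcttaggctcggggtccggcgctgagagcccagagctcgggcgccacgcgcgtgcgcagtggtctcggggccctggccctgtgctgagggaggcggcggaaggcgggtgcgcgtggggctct
The core was in 3 of these 4 windows. It began 135 bases before the start in *Aqp1* and 173 bases before it in *Aqp11*, on the opposite strand in both, and 246 bases before it in *Aqp8*, on the same strand. The GENCODE M21 start of *Aqp1*, given with its values, lies further downstream, and the same window drawn from that start would not reach the *Aqp1* core. Neither of the 2 annotated *Aqp7* starts had one. The E-box CACGTG, the kind of site that HES and HEY repressors can bind, was in the *Aqp8* window, 75 bases before the start, and in none of the other 3. Searched the same way on both strands, 21.6% of 32851 RefSeq promoters held the core and 6.02% held the E-box. A match of this length is a description of the letters and not evidence of binding.

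*Aqp4*, the orthodox water channel of astrocytes and fast muscle fibers, lies on chromosome 18 at chr18:15389496-15410982, minus strand, in GENCODE M21. In the controls its lowest, median and highest levels were 1.31, 11.7 and 25.2 normalized CPM. In the iNICD libraries they were 85.1, 115 and 176. The groups were far apart, and the lowest iNICD library was 3.38 times the highest control. In reads, the controls had 28 to 544 and the iNICD libraries 1929 to 4657.

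Control replicate 5 was the lowest control for *Aqp4* by a wide margin. It had 28 reads, 0.0838 of the mean of the other controls, which lay between 10.9 and 25.2 normalized CPM. The control mean was 13.3 ± 8.06 (SD, n = 6) with it and 15.6 ± 6.20 (SD, n = 5) without it, against 120 ± 32.1 (SD, n = 6) in iNICD. The log2 fold change of *Aqp4*, iNICD minus control, was 3.17 (SE 0.46) with all libraries, a 9.02-fold difference, and 2.94 (SE 0.26) without that control, a 7.66-fold difference. Leaving the library out thus lowered the estimate slightly and narrowed its error.

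*Aqp4* was near the top of the table by size of difference. Of 13541 genes that passed the filter of more than 1 CPM in at least 6 libraries, 17 had a higher log2 fold change, and among the 9339 genes with a control mean of at least 10 normalized CPM, 2 did. In the edgeR quasi-likelihood fit over all genes, *Aqp4* was the 1 member called higher and no member was called lower, at an adjusted p under 0.05. The shares of all tested genes called were 2.78% higher and 1.34% lower. Without control replicate 5 the member calls were the same, with 3.69% of all tested genes higher and 2.26% lower. All 6 iNICD libraries lay above all 6 controls for *Aqp4* alone among the members, and for 2.58% of the tested genes. These counts follow from the way the members were picked.

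*Aqp1*, the water channel of endothelium and red cells, was the most abundant aquaporin. Its gene lies at chr6:55336432-55348555 on the plus strand. The controls had a lowest, median and highest level of 225, 302 and 487 normalized CPM, and the iNICD libraries 231, 273 and 317. The iNICD values all fell inside the range of the controls. They rest on 5977 to 10396 reads per control library and 5699 to 7656 per iNICD library.

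The highest *Aqp1* value belonged to control replicate 5, at 1.61 times the mean of the other controls. The control mean of *Aqp1* was 332 ± 94.9 (SD, n = 6) with that library and 302 ± 64.2 (SD, n = 5) without it, against 276 ± 34.8 (SD, n = 6) in iNICD. The log2 fold change of *Aqp1* was −0.27 (SE 0.16) and −0.13 (SE 0.13) without control replicate 5. Both estimates were within the spread of the libraries, and *Aqp1* was not called in either fit.

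*Aqp7*, the glycerol channel, lies at chr4:41033074-41048139 on the minus strand, next to its relative *Aqp3* at chr4:41092722-41098183. Its lowest, median and highest levels were 8.99, 11.2 and 16.0 normalized CPM in the controls and 13.2, 15.5 and 19.8 in iNICD. Of the 6 iNICD libraries, 3 lay above every control and the other 3 within the range of the controls. The mean of *Aqp7* was 11.7 ± 2.60 (SD, n = 6) in control, 12.2 ± 2.51 (SD, n = 5) without control replicate 5, and 15.9 ± 2.31 (SD, n = 6) in iNICD, from 192 to 386 and 299 to 524 reads.

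For *Aqp7* the log2 fold change was 0.44 (SE 0.14), and 0.38 (SE 0.14) without control replicate 5, which was at 0.737 of the mean of the other controls. *Aqp7* was called in neither fit. It passed the threshold in 1 of the 12 fits that left out a single library, the one without control replicate 3, the control with the highest *Aqp7*, where the log2 fold change was 0.55.

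*Aqp11*, a channel of intracellular membranes including the endoplasmic reticulum, lies at chr7:97724006-97738289 on the minus strand. It had 5 to 42 reads in the controls and 10 to 34 in iNICD. Its lowest, median and highest levels were 0.234, 0.844 and 1.66 normalized CPM in control and 0.441, 0.933 and 1.39 in iNICD, so the groups overlapped throughout. *Aqp11* did not pass the filter on low counts. Fitted without the filter, its log2 fold change was 0.08 (SE 0.37). Without control replicate 5, which had 5 reads and the lowest value, *Aqp11* passed the filter and its log2 fold change was −0.11 (SE 0.31), so the sign depended on that library.

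*Aqp8*, a channel for water and hydrogen peroxide found in liver, gut and pancreas, lies at chr7:123462291-123468004 on the plus strand. It had 0 to 2 reads in each control, 4 in all, and 0 or 1 in each iNICD library, 1 in all. These values are at or below the limit of 3 reads that a count of 0 allows, which was 0.109 to 0.140 normalized CPM in these libraries, so no fold change is given and a difference was not detectable at this depth.

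**Figure D1:**
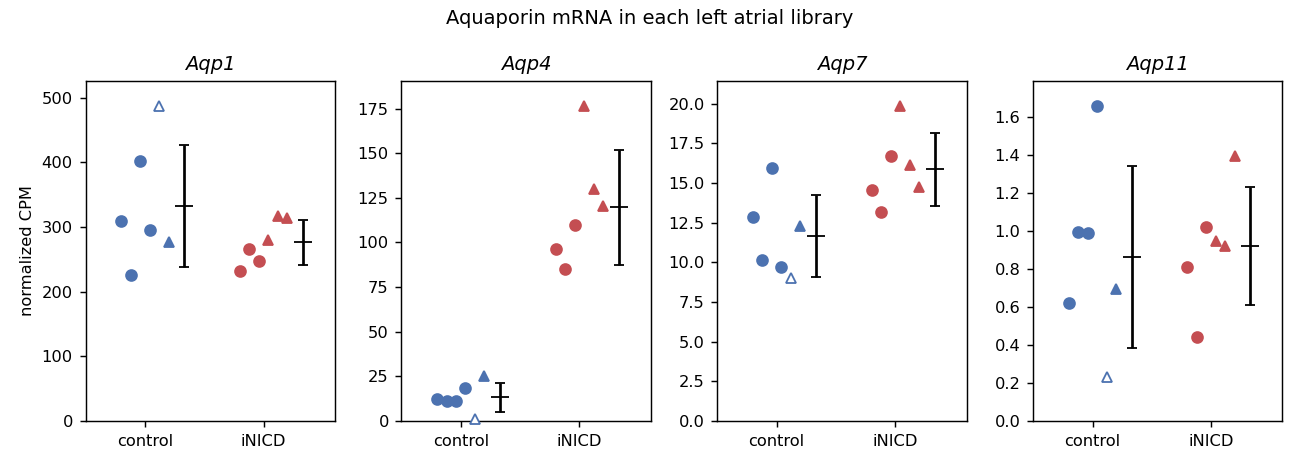
Level of 4 aquaporins in each library, in normalized CPM on a linear axis from 0. Circles are females, triangles males, the hollow triangle is control replicate 5, and the bars are mean ± SD (n = 6 per group). The *Aqp4* points of iNICD start at 85.1 and those of control end at 25.2, whereas the groups overlap for *Aqp1*, *Aqp7* and *Aqp11*.

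The other 8 aquaporin names were close to absent. *Aqp2*, the vasopressin-regulated channel of the kidney, had at most 6 reads in a library, *Aqp3* at most 4, *Aqp5*, the channel of glands and lung, at most 7, *Aqp9* at most 5 and *Aqp6* at most 2. *Aqp12*, the lens aquaporin *Mip* and the pseudogene *Aqp10-ps* had 0 reads in all 12 libraries. Only *Aqp1*, *Aqp4* and *Aqp7* passed the filter in the fit of all libraries.

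To compare the members with each other, their normalized CPM were divided by the gene length deposited with the table. *Aqp1* was at 127 ± 36.1 normalized CPM per kb in control and 105 ± 13.3 in iNICD (SD, n = 6 each). *Aqp4* was at 2.13 ± 1.29 in control and 19.2 ± 5.15 in iNICD on this scale, and *Aqp7* at 4.12 ± 0.920 and 5.61 ± 0.817. The control means per kb without replicate 5 were 115 ± 24.4 for *Aqp1*, 2.51 ± 0.994 for *Aqp4* and 4.31 ± 0.888 for *Aqp7* (SD, n = 5). Per kb, the order in control, with or without that library, was thus *Aqp1*, *Aqp7*, *Aqp4*. In iNICD it was *Aqp1*, *Aqp4*, *Aqp7*. This change of order rests on the division by 1 deposited length per gene name, 6233 bases for *Aqp4* and 2828 for *Aqp7*. Before the division, the control mean of *Aqp4* was already above that of *Aqp7*. The means were 13.3 and 11.7 normalized CPM, and 15.6 and 12.2 without replicate 5.

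Per kb, the order of *Aqp4* and *Aqp7* held in every single library of a group. *Aqp4* per kb was 0.0662 to 0.928 of *Aqp7* in the controls, with 0 of 6 libraries above 1, and 2.93 to 4.03 times *Aqp7* in iNICD, with 6 of 6 above 1. *Aqp1* exceeded *Aqp4* per kb in all libraries, by 26.1 to 881 times in the controls, by 26.1 to 84.0 times in the controls other than replicate 5, and by 3.75 to 7.42 times in iNICD. The aquaporin mRNA of the iNICD libraries was therefore still mostly *Aqp1*.

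Summed over all 13 names, the aquaporin level was 133 ± 35.3 normalized CPM per kb in control and 130 ± 16.4 in iNICD. The control sum without replicate 5 was 122 ± 25.0, so the direction of this small difference depended on that library. *Aqp1* made up 94.7 ± 1.86% of the sum in control and 80.8 ± 3.32% in iNICD. The share of *Aqp4* was 1.80 ± 1.18% in control, from 0.111% to 3.55%, and 14.7 ± 2.86% in iNICD, from 11.4% to 20.0%. For *Aqp7* the share was 3.25 ± 0.851% and 4.34 ± 0.616%, with ranges of 1.68% to 3.93% and 3.62% to 5.00%. The control shares without replicate 5 were 94.1 ± 1.01% for *Aqp1*, 2.13 ± 0.938% for *Aqp4* and 3.56 ± 0.414% for *Aqp7* (n = 5). The sums overlapped between the groups, whereas the shares of *Aqp1* and *Aqp4* did not.

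**Figure D2:**
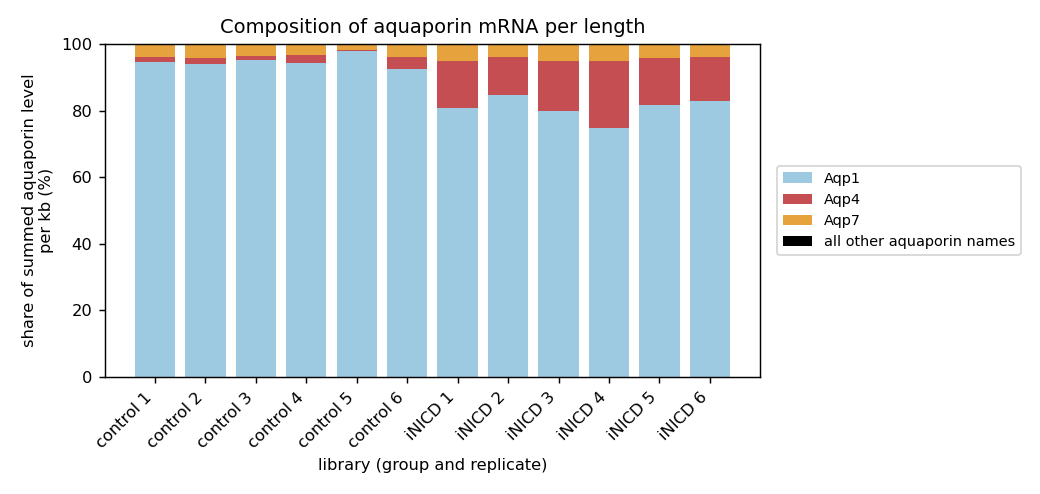
Share of each aquaporin in the summed aquaporin level per kb (percent, y axis) for each of the 12 libraries (x axis). The red *Aqp4* segment is at most 3.55% in the controls and at least 11.4% in the iNICD libraries, and the segment of all other names is too thin to see.

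Sex was not used to choose the members and was tested in the fit over all genes, with genotype in the model. Across all 12 libraries none of the 3 tested members was called between females and males, where 0.288% of all tested genes were. The log2 difference, female minus male, was −0.31 (SE 0.45, adjusted p = 0.807) for *Aqp4*, −0.30 (SE 0.15, adjusted p = 0.402) for *Aqp1* and −0.02 (SE 0.16, adjusted p = 0.973) for *Aqp7*, by edgeR's quasi-likelihood test.

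Within the iNICD group, *Aqp4* was at 85.1 to 110 normalized CPM in the 3 females and 120 to 176 in the 3 males, with means of 97.1 ± 12.4 and 142 ± 30.0 (SD). The 2 sexes did not overlap, and the two-sided exact permutation test gave p = 0.1, the smallest value that 3 against 3 allows. *Aqp1* had the same arrangement, with 231 to 266 in iNICD females and 279 to 317 in iNICD males (exact permutation p = 0.1). The sexes overlapped for *Aqp7* (exact permutation p = 0.4) and *Aqp11* (exact permutation p = 0.3).

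Among the controls, the 4 females had 10.9 to 18.7 normalized CPM of *Aqp4*, and the 2 males had 1.31 and 25.2. One of these males is control replicate 5. Without it, the log2 difference of *Aqp4* between females and males in the edgeR fit was −0.67 (SE 0.17, adjusted p = 0.118), lower in all 3 iNICD females than in any iNICD male and lower in all 4 control females than in the remaining control male. It did not pass the threshold. For *Aqp1* and *Aqp7* the differences without that library were −0.14 (adjusted p = 0.701) and −0.13 (adjusted p = 0.729).

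The effect of iNICD itself was compared between the sexes by an interaction term in edgeR. No gene was called, 0% of the 13541 tested, with 501 genes at an unadjusted p under 0.05 and a lowest adjusted p of 0.916. The difference of the log2 fold change, female minus male, was −0.55 (SE 0.93, adjusted p = 0.936) for *Aqp4*, −0.38 (SE 0.30, adjusted p = 0.916) for *Aqp7* and 0.02 (SE 0.32, adjusted p = 0.995) for *Aqp1*. The errors are wide, and without control replicate 5 the sign of the *Aqp4* and *Aqp1* terms turned, to 0.38 (adjusted p = 0.944) and −0.44 (adjusted p = 0.940).

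The levels of the tested genes nearest to each member were read from the same fit. On the side of lower coordinates of *Aqp4*, 238 kb away, *Kctd1*, a potassium channel tetramerization domain protein that acts on transcription, was called higher in iNICD, with a log2 fold change of 1.29 (SE 0.14, edgeR adjusted p = 9.76e-05), and of 1.22 without control replicate 5 (edgeR adjusted p = 8.28e-05). On the other side, 1178 kb away, *Cdh2*, the N-cadherin of the intercalated disc, was not (0.07, edgeR adjusted p = 0.736). An antisense gene that overlaps *Aqp4*, *AC133525.2*, had at most 2 reads in any library. The neighbors of the other 4 members were not called. They were *Mindy4* (−0.01) and *6430584L05Rik* (−0.31) beside *Aqp1*, *Nfx1* (−0.03) and *Nol6* (−0.04) beside *Aqp7*, *Lcmt1* (0.12) and *Zkscan2* (0.63) beside *Aqp8*, and *Clns1a* (−0.02) and *Pak1* (−0.15) beside *Aqp11*, all log2 fold changes, with edgeR adjusted p-values of at least 0.403.

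**Figure D3:**
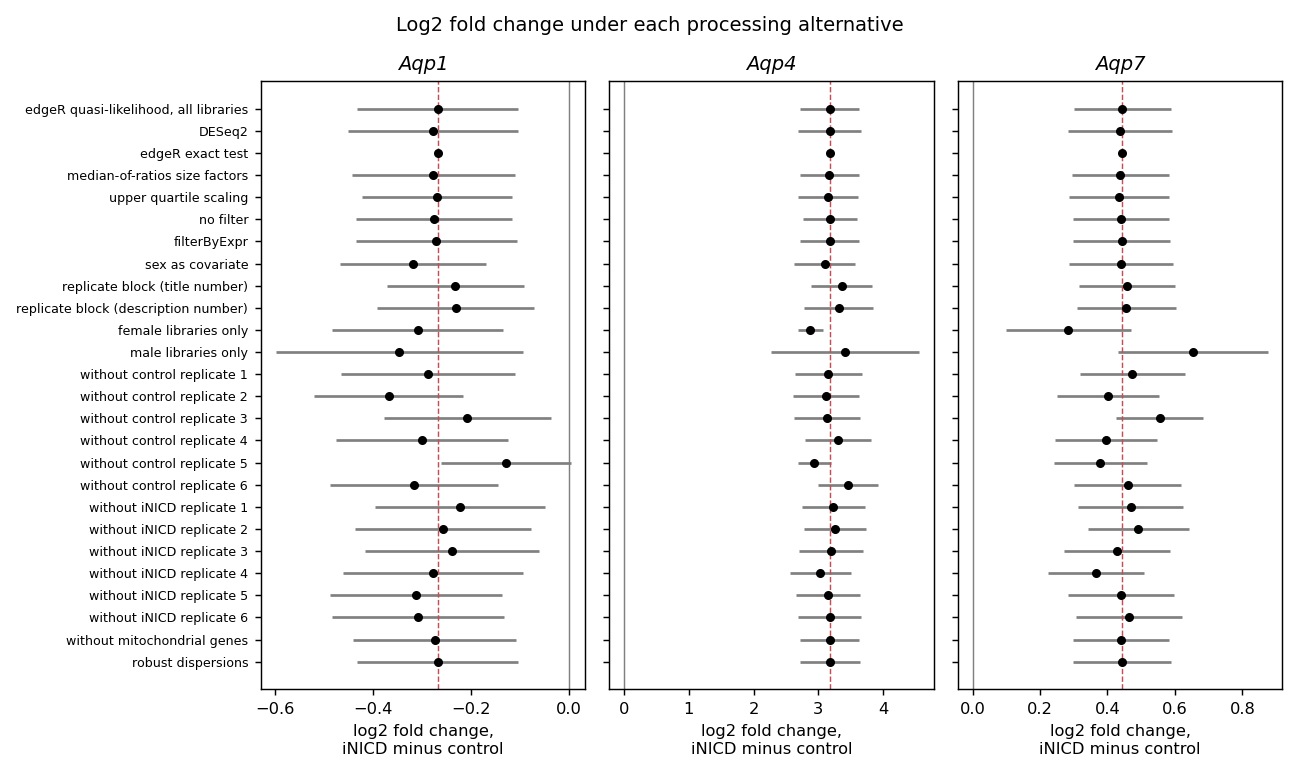
Log2 fold change of the 3 tested members, iNICD minus control (x axes, log2 units), under each way of processing the counts (y axis). Bars are ± SE, with none for the exact test, and the dashed line is the value reported. *Aqp4* ran from 2.87 to 3.46, *Aqp1* from −0.37 to −0.13 and *Aqp7* from 0.28 to 0.65, each on 1 side of 0.

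Because *Aqp4* is anchored by the dystrophin complex, its genes were examined in the same fit. Of 13 tested, none was called higher and 2 were called lower, and their median log2 fold change was −0.06. Of all tested genes, here and for the lists that follow, 2.78% were called higher and 1.34% lower (3.69% and 2.26% without control replicate 5), with a median of −0.01. *Dag1*, the dystroglycan that links the complex to laminin, went from 901 ± 41.6 to 756 ± 44.6 normalized CPM, with a log2 fold change of −0.25 (SE 0.06, edgeR adjusted p = 0.0331). *Dtnb*, β-dystrobrevin, had a log2 fold change of −0.46 (SE 0.11, edgeR adjusted p = 0.0349). When control replicate 5 was left out, their log2 fold changes were −0.24 for *Dag1* and −0.50 for *Dtnb*, both still called lower, and the median of the list was 0.10. Dystrophin itself, *Dmd*, had a log2 fold change of 0.36 (edgeR adjusted p = 0.124), and of 0.39 without that library (edgeR adjusted p = 0.0940). With the replicate number as a block in the fit of all libraries, 0 of the 13 genes were called in either direction.

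For *Aqp7*, the genes of glycerol handling and lipolysis were examined. None of the 11 was called in either direction, with a median log2 fold change of −0.10. The most abundant were *Pnpla2*, which cleaves the first fatty acid from triglyceride, at 224 ± 46.4 in control and 274 ± 63.9 in iNICD (log2 fold change 0.29, edgeR adjusted p = 0.420), and *Mgll*, which releases glycerol in the last step, at 114 ± 26.8 and 82.6 ± 8.79 normalized CPM (−0.46, edgeR adjusted p = 0.0816). With control replicate 5 left out, these log2 fold changes were 0.32 and −0.34, and again none of the 11 was called.

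Genes of cell volume control, which set the solute gradients that water follows, gave 1 call higher and none lower of the 13 of 14 that were tested, with a median log2 fold change of −0.10. This list depended on control replicate 5. Without it 3 genes were called higher, among them *Slc12a7* (0.50) and the kinase gene *Wnk1* (0.22), and 2 lower, the amino acid carrier *Slc38a2* (−0.65) and the inositol carrier *Slc5a3* (−0.77). *Slc38a2* ran from 189 normalized CPM in the lowest control to 941 in control replicate 5, the highest, and from 178 to 228 in iNICD. With the replicate number as a block in the fit of all libraries, 0 of the 13 tested genes were called in either direction.

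For the hydrogen peroxide that *Aqp8* and *Aqp11* can pass, 20 genes of peroxide handling were tested, with 1 called higher, 1 lower and a median log2 fold change of −0.01. *Prdx6*, a peroxiredoxin, went from 129 ± 7.75 to 161 ± 5.31 normalized CPM (log2 fold change 0.32, SE 0.05, edgeR adjusted p = 0.00371). The secreted glutathione peroxidase gene *Gpx3* went from 2606 ± 476 to 1815 ± 164 (−0.52, SE 0.11, edgeR adjusted p = 0.0210). Both were still called without control replicate 5, at 0.30 for *Prdx6* and −0.42 for *Gpx3*.

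**Figure D4:**
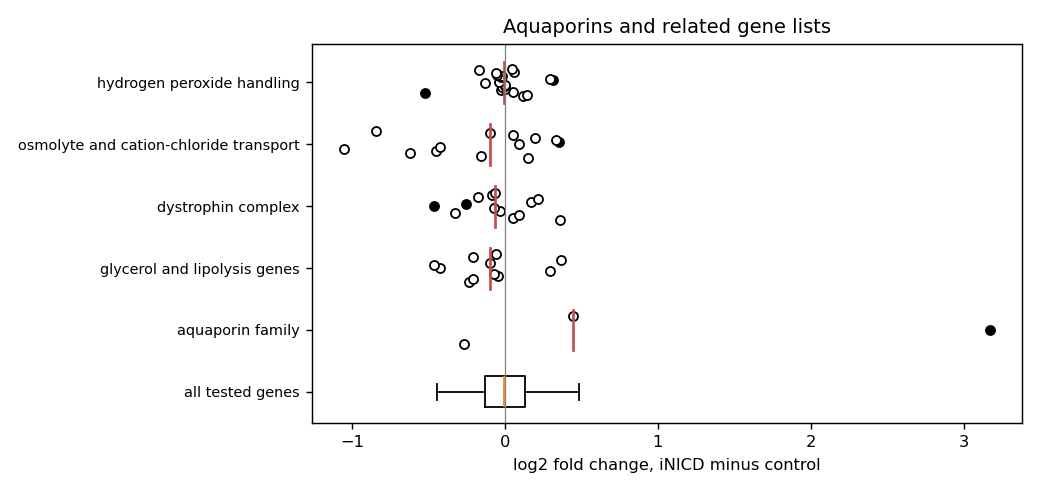
Log2 fold change, iNICD minus control (x axis), of each tested gene of the aquaporin family and of 4 related lists (y axis). Filled points passed an adjusted p of 0.05, red lines are list medians, and the box at the bottom shows the quartiles of all tested genes, with whiskers from the 5 to the 95 percentile. *Aqp4*, at 3.17, lies far to the right of every other gene drawn, and the medians of the 4 related lists lie between −0.10 and −0.01.

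Cell type markers were summed in each library to give the tissue context of the members. Of 8 CM markers 5 were called lower in iNICD, and their sum was 85882 to 96935 normalized CPM in the controls other than replicate 5, 110047 in replicate 5 and 56812 to 69943 in iNICD, so it moved with the groups opposite to *Aqp4*. The 5 called lower were *Nppa*, *Myl4*, *Tnnt2*, *Sln* and *Myl7*. *Nppa*, the atrial natriuretic peptide gene, had the largest part in the fall of the sum, at 20708 to 30718 in control and 1803 to 7910 in iNICD. The atrial light chain gene *Myl4* was at 7001 to 8268 and 3891 to 5330, and *Tnnt2* at 8171 to 10538 and 5951 to 7534. All 3 were without overlap. The other 3 markers, *Myh6* (32809 to 35322 and 30517 to 36036), *Actc1* and *Ryr2*, overlapped between the groups. Of 8 endothelial markers, for the cells that carry much of *Aqp1*, 1 was called higher, *Esam*, at 52.5 to 66.1 in control and 123 to 202 in iNICD, and the sums overlapped, at 868 to 1040, 1183 and 875 to 1078 in the same order. Replicate 5 had the highest *Aqp1* and also the highest endothelial sum. Its *Pecam1* (403), *Cdh5*, *Esam* and *Emcn* (171) were the highest of the controls, but its *Kdr* (119) and *Tie1* (86.2) were the lowest. Erythroid markers, with none of the 5 tested of 7 called, overlapped at 59.5 to 247 in control and 27.2 to 138 in iNICD, with median sums of 163 and 59.4 and a median log2 fold change of −1.30. The part of these shifts in the aquaporin values was not tested.

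Other cell types known for *Aqp4* left few reads. Skeletal muscle markers summed to 5.46 to 10.6 normalized CPM in control and 8.60 to 13.0 in iNICD, with 1 of 3 tested genes higher. That gene was *Tnni2*, the fast troponin I, at 0.414 to 0.988 in the controls other than replicate 5, 2.81 in replicate 5 and 2.38 to 5.20 in iNICD. *Tnnt3* was at 0.833 to 1.84, 5.29 and 1.76 to 3.14 in the same order. *Actn3* overlapped between the groups, at 1.55 to 6.85 in control and 2.11 to 4.35 in iNICD (log2 fold change 0.14, not called). *Mylpf* was at 0.421 to 1.03 in control and 0.284 to 0.752 in iNICD, and *Pvalb* at no more than 0.332 and 0.122. *Myod1* was at 0 in every library, and the fast myosin genes *Myh1*, *Myh2* and *Myh4* were at no more than 0.455. Lung epithelial markers summed to at most 1.13, with *Sftpb* at 0 in every library. Glial markers overlapped, at 14.9 to 21.2 in control and 16.4 to 19.8 in iNICD, with none of 3 tested genes called. The part of these cell types in the *Aqp4* values was not tested. Adipocyte markers, relevant to *Aqp7*, summed to 243 to 354 in the controls other than replicate 5, 552 in replicate 5 and 135 to 258 in iNICD, with 1 of 3 tested genes lower. Almost all of that sum was *Plin4*, which muscle also makes, whereas *Adipoq* was at most 2.84 in any library.

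Smooth muscle markers marked out control replicate 5, at 5883 normalized CPM against 1503 to 3003 in the other controls and 1449 to 2867 in iNICD, and so did the brown adipocyte sum, at 47.9 against 7.99 to 36.7 and 7.71 to 18.1. Most of each sum in that library was 1 gene, *Des*, which CMs also make, at 5315, and *Dio2* at 38.8. Of the other smooth muscle markers, *Cnn1* (236 against 4.14 to 130 in the other controls), *Tagln* (60.9 against 10.6 to 32.3) and *Myh11* (40.4 against 20.7 to 31.1) were also highest in control replicate 5, *Acta2* (56.0) lay within the control range and *Smtn* (176 against 236 to 379) was lowest. In the brown adipocyte list *Cidea* was highest there too, at 9.03 against 4.43 to 6.37, and *Ucp1* and *Elovl3* were at 0. Of the smooth muscle and brown adipocyte genes tested, none was called. Fibroblast sums were 2766 to 4008 in control and 2862 to 4662 in iNICD, and mesothelial sums 246 to 335 and 156 to 313, with no gene called in either list. Whether other cells in control replicate 5 set its low *Aqp4* was not tested.

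Finally, the genes whose level followed each member most closely from library to library were listed, by Pearson's r of the deviation of log2 CPM from the group mean. For *Aqp4* over 12 libraries they were *Cep19* (0.98), *Mob3b* (0.97) and *Phlpp1* (0.97), and 163 genes exceeded an r of 0.9. Without control replicate 5 only 6 genes did, and the closest were *Dap3* (0.97), *Sucla2* (0.91) and *Mrps9* (0.91). The first *Aqp4* list therefore followed that library. For *Aqp7* the closest genes were *Srek1ip1* (0.94), *4930480K23Rik* (0.90) and *C1qtnf9* (0.90) over 12 libraries and *C1qtnf9* (0.97), *mt-Tq* (0.94) and *Srek1ip1* (0.93) over 11. For *Aqp1* they were *Tdp2* (0.96), *D17H6S53E* (0.92) and *Gm13340* (0.91) over 12 and *Gm16537* (0.96), *Tdp2* (0.93) and *Tarbp2* (0.93) over 11.

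Between the members, r was −0.59 for *Aqp1* with *Aqp4* over 12 libraries and 0.07 over the 11 without control replicate 5. For *Aqp4* with *Aqp7* it was 0.49 and 0.19, and for *Aqp1* with *Aqp7* 0.07 and 0.57. All r values describe libraries that share their depth and scaling, and are given with no test.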

How the data were processed

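RNA from 12 LA was depleted of ribosomal RNA and sequenced as stranded single-end libraries. The authors deposited raw counts of reads for each gene name, not normalized, and a gene length in bases. The submitters' processing notes name cutadapt, STAR 2.4.2a, featureCounts, edgeR and mm10. The paper's methods also describe a route by TopHat2 and HTSeq that left out mitochondrial reads, and the table names no counter but holds 37 mitochondrial genes. Groups, replicate numbers and sex are from the sample labels, and no label states more than 1 library per animal. Libraries of a group were no copies of each other (lowest chi-square per gene 16.7).

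A gene was tested if it exceeded 1 CPM in 6 or more libraries (13541 genes). Counts were scaled by TMM and fitted in edgeR 4.0.16 (R 4.3.3) with its two-sided quasi-likelihood test; p-values were adjusted over all tested genes by Benjamini-Hochberg, with 0.05 as threshold. The SE is the log2 fold change over the root of its F statistic. CPM were computed on the TMM-scaled library total. For likeness, log2 CPM had a prior count of 2. DESeq2 1.42.0, other scalings and filters, sex as covariate, a replicate block, single sexes and libraries left out were alternatives; robust dispersions and marker ranges without control replicate 5 were added after seeing the data. Limits of 3 counts cover counting error only. Promoters are from RefSeq (GRCm38.p6), gene positions from GENCODE M21, a later release than the paper's, on the same build, and figures and tables used Python 3.11.15.

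The members and all gene lists were chosen with earlier results of these data known. Named genes are the members and the other aquaporins, *Notch1*, called genes of each list (up to 5 each way) or else the 2 most abundant, the nearest tested gene on each side of a member, and the 3 most alike; *Dmd* and genes named with markers were added after their values were seen, and some genes of the lists are not reported here. Other chambers and species were not analysed here.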

Additional observations from a re-analysis of the deposited data

Results flagged for a closer look

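Of the 5 members in the 2 groups, 1 value stood apart from the rest of its group by Dixon's ratio of gap to range. *Aqp8* in iNICD replicate 5 was at 0.0418 normalized CPM, a single read, where the other 5 iNICD libraries were at 0. Chance alone flags about 1 in 20 groups, a rate that does not apply here. A single read among libraries at 0 always gives a ratio of 1, and the value is below the limit of 3 reads.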

How the results depend on the processing

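The log2 fold changes of *Aqp1*, *Aqp4* and *Aqp7* kept their direction under every alternative tried. Leaving out 1 library at a time gave −0.37 to −0.13 for *Aqp1* (called in 0 of 12 fits). It gave 2.94 to 3.46 for *Aqp4* (12 of 12) and 0.37 to 0.55 for *Aqp7* (1 of 12), so that 1 to 2 members were called higher. These fits share most of their libraries and repeat the comparison on which the members were picked. Their counts of calls are a description and not a test. In the male libraries alone *Aqp4* was at 3.41 but did not pass the threshold, and 0 members were called; that fit has 2 controls, which include replicate 5. In the related lists, DESeq2 called 1 glycerol gene lower, and 2 volume control genes higher and 3 lower; without control replicate 5 the latter were 3 and 2. The r between the deviations of same-numbered libraries was 0.20, 0.13, −0.11, −0.15, 0.28 and 0.37 for replicates 1 to 6. By the numbers of the descriptions it was 0.18 for number 4 and 0.05 for number 5, and unchanged for the others. Whether the numbers pair the libraries was not tested. With the replicate block the log2 fold changes were −0.23 for *Aqp1*, 3.36 for *Aqp4* and 0.46 for *Aqp7* (3.31 for *Aqp4* with the numbers of the descriptions), and 0 dystrophin and 0 volume control genes were called. Over all genes, 377 were called higher and 181 lower by the main test, 615 and 444 by DESeq2, and 332 and 136 with the block. Without control replicate 5 the sex interaction terms turned sign, to −0.44 for *Aqp1* and 0.38 for *Aqp4*. Why these values moved was not tested. Depth limits *Aqp8*, *Aqp11* and the other low aquaporins.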

Other observations

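Within the 6 iNICD libraries *Notch1* ranged from 2975 to 4077 normalized CPM, and the members were set against it in 3 relations. For *Aqp4* Pearson's r was 0.20 (exact permutation p = 0.669) and Spearman's rho −0.09 (exact permutation p = 0.919). For *Aqp1* they were −0.26 (exact permutation p = 0.625) and −0.43 (exact permutation p = 0.419), and for *Aqp7* 0.28 (exact permutation p = 0.583) and 0.2 (exact permutation p = 0.714). Adjusted over the 3 relations, every p by permutation was 0.669 for r and 0.919 for rho. Without the 2 libraries farthest from the *Notch1* median, r was −0.90 for *Aqp4*, −0.94 for *Aqp1* and −0.09 for *Aqp7*, over 4 libraries, so no relation held on all 6 and the sign of r for *Aqp4* and *Aqp7* rested on those 2.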
